A study of Procambarus virginalis with 4 samples.

Results

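In hemocytes of the marbled crayfish (*Procambarus virginalis*), 88 transcribed features stood at least 3 times higher in both *Dnmt1* KD libraries than in both Control libraries. They were chosen on these values. A feature had to reach a mean of at least 1 TPM (a read count scaled for feature length and library depth so that each library has the same sum) over the 4 libraries. Its lower KD value had to be above 0 and at least 3 times its higher Control value. The 100 features of highest mean TPM were to be left out, which removed 0 features that met the rest of the rule. The 88 members are 0.406% of the 21674 features with a mean of at least 1 TPM, and the whole table lists 111422 features. The mirrored rule, with the lower Control value at least 3 times the higher KD value, picked 193 features, or 0.890%. These 193 are called mirrored fallers below. Because the rule used the KD to Control contrast, the levels and folds of the members are given as a description, with no test.

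The KD animals had received double-stranded RNA against *Dnmt1* (dsDnmt1) into the hemolymph, and the Control animals double-stranded RNA against GFP (dsGFP), a jellyfish protein the crayfish does not make. Hemocytes were bled 28 days after injection from 2 KD and 2 Control animals, giving 1 library each. All animals belong to a species that reproduces clonally, and all had been injected, so that the groups differ by the target of the RNA. The labels give no age. RNA interference lowers a transcript for a time and does not remove the gene, and the exons of *Dnmt1* that match the injected RNA had been taken out before mapping.

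Dnmt1 is the maintenance DNA methyltransferase, which copies methyl groups onto the newly made strand after DNA replication. In many invertebrates the methylated cytosines lie mainly within the bodies of genes, often of genes that most cells use, and genes without such methylation tend to be more variable in expression. Hemocytes are the circulating immune cells of crustaceans and include hyaline, semigranular and granular cells. They carry the clotting, melanization and antimicrobial responses, and arise from hematopoietic tissue.

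The deposited table names features by a scaffold, a number and sometimes a suffix, for example WNGS01165523.2389761_0_covsplit. Nothing used here pairs these names with genes, so no role can be given to a member, and neither *Dnmt1* nor any hemocyte marker could be looked up in these libraries. The labelled knockdown and cell type were therefore not checked. What the suffix _covsplit stands for is not explained by the labels, the methods or the table. In bulk RNA, a change in the number of cells of a type and a change in RNA per cell cannot be told apart.

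TPM of a feature stand in ratios of whole reads. The lowest whole reads that fit, which can fall short of the true count, were found for 100% of the 58226 features above 0. These reads summed to 30782726 and 27933486 in KD 1 and KD 2, and to 24261401 and 29977177 in Control 1 and Control 2. Over all features tested, the median log2 fold change of KD over Control on the log2(TPM + 1) scale was -0.03. The 2 Control libraries were further apart than the 2 KD libraries. They differed by at least 2 times in 17.5% of features above 0 in both, against 7.38% for the KD libraries.

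The members ranged widely in level. Their mean KD level had a median of 3.19 TPM, and 54 of the 88 averaged under 5 TPM in KD hemocytes. In contrast, 22 averaged 10 TPM or more and 5 averaged 100 TPM or more. The mean Control level had a median of 0.501 TPM. Summed over the members, TPM came to 1961 and 1552 in the KD libraries, against 239 and 313 in the Control libraries. The 5 members of highest KD level held 61.6% and 56.5% of these sums in KD and 62.3% and 68.0% in Control. Without the highest member the mean sum was 1411 TPM in KD and 238 TPM in Control.

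**Figure D1:**
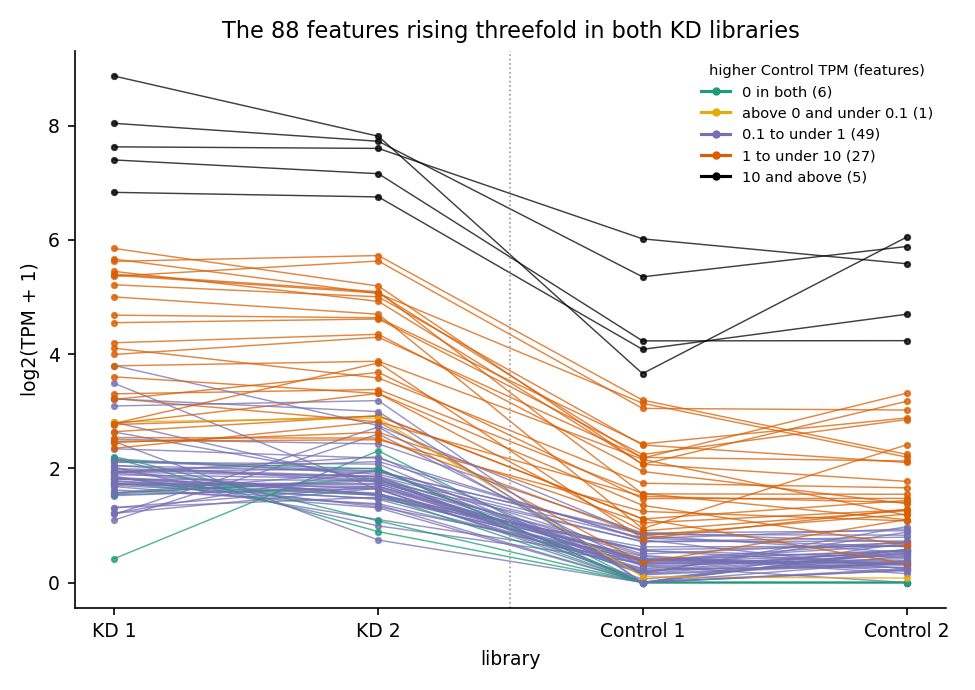
Level of each of the 88 members as log2(TPM + 1) in KD 1, KD 2, Control 1 and Control 2, with a line for each member coloured by the band of its higher Control TPM. Every line drops between the KD and the Control libraries because the rule required it, and 6 members are at 0 in both Control libraries.

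Most members were above 0 in Control hemocytes, though often on few reads. Grouped by their higher Control value, 6 members (6.82%) were at 0 in both Control libraries, 1 was above 0 and under 0.1 TPM, 49 (55.7%) were at 0.1 to under 1 TPM, 27 (30.7%) were at 1 to under 10 TPM, and 5 (5.68%) were at 10 TPM or more. Thus 32 of the 88 were already at 1 TPM or more in a Control library. Members at 0.1 to under 1 TPM had 1 to 201 reads in the Control libraries together. Control reads together were under 5 for 22 of the 88, the 6 at 0 included. Values on so few reads cannot be told reliably from silence. The mirrored fallers, grouped in the same way by their higher KD value, had 9, 14, 112, 48 and 10 members in these bands. The requirement of a mean of at least 1 TPM acts on these counts, since a feature silent in Control had to average at least 2 TPM in KD to be listed. Low bands therefore hold few other features. Of all tested features, 7 were at 0 in both Control libraries, and the seventh had 5.72 TPM in KD 1 and 0 in KD 2. The band of 0.1 to under 1 TPM held 385 tested features, and the bands above it held 12605 and 8676.

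The 5 members already at 10 TPM or more in Control were the 5 highest in KD. The highest of all was WNGS01165523.2389761_0_covsplit, with 467 and 224 TPM in the KD libraries, against 11.6 and 65.2 TPM in the Control libraries. Its lower KD value was 3.44 times its higher Control value, and the libraries of each group lay far apart. Its recovered reads numbered 9093 and 3919 in KD, against 166 and 1218 in Control. The second member had 263 and 211 TPM in KD and 39.9 and 58.1 TPM in Control. The fourth had 168 and 142 TPM in KD and 17.8 and 17.8 TPM in Control, a ratio of 7.96 between the nearest libraries. In this member both groups were tight, which set it apart from the first.

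Among the 27 members at 1 to under 10 TPM in Control, mean KD levels ran between 4.61 and 50.1 TPM with a median of 13.6 TPM. The highest of them had 48.3 and 52.0 TPM in KD and 8.16 and 3.74 TPM in Control. The next had 56.7 and 35.5 TPM in KD and 3.20 and 8.03 TPM in Control. This band also holds the member of largest log2 fold change, WNGS01169498.2673468_0_covsplit. It had 41.2 and 33.1 TPM in KD, against 1.93 and 1.92 TPM in Control, a log2 fold change of 3.70 on the log2(TPM + 1) scale. Its lower KD value was 17.2 times the higher Control value, on 291 and 210 KD reads and 10 and 13 Control reads over a length of 347 bases. The Control libraries were nearly equal and low, and both KD libraries were far above them.

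Of the 49 members at 0.1 to under 1 TPM in Control, mean KD levels had a median of 2.41 TPM and reached 9.33 TPM. The highest had 12.9 and 5.72 TPM in KD and 0.767 and 0.440 TPM in Control. The next had 7.52 and 8.10 TPM in KD and 0 and 0.180 TPM in Control, with 2 reads in the Control libraries together. The 1 member above 0 and under 0.1 TPM had 6.02 and 6.36 TPM in KD and 0.0721 and 0.0551 TPM in Control. It had 114 and 108 reads in KD and 1 read in each Control library, and its ratio between the nearest libraries was 83.5, the largest among the members.

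The 6 members at 0 in both Control libraries averaged between 2.10 and 3.18 TPM in KD, on 28 to 91 KD reads in both libraries together. The highest had 3.39 and 2.97 TPM in KD and 0 in both Control libraries, and the next had 3.62 and 1.11 TPM in KD and 0 in both Control libraries. A count of 0 was taken as allowing up to 3 reads over the Control group. Against this floor, with the KD reads taken as counted, the ratio of read shares was 28.0 for the highest and 11.4 for the next. For the other 4 the values were 8.62, 14.2, 18.8 and 27.7. With counting error in the KD reads as well, the exact 95% lower bounds of the read share ratio for the highest and the next were 22.3 and 8.81. The rule chose these members on the same reads, and the reads of a group are pooled without the spread between animals. These values therefore describe read depth and do not bound the true rise. Of the other members, 8 were at 0 in Control 1 only and 1 was at 0 in Control 2 only. Without Control 2, 15.9% of the members would count as silent, and without Control 1 7.95%.

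**Figure D2:**
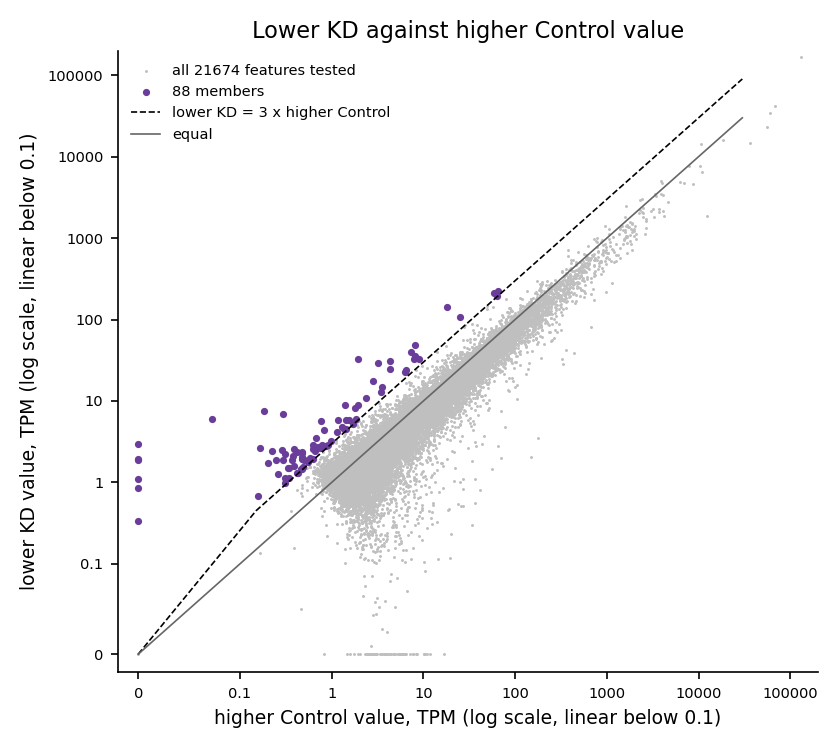
Lower KD TPM of each feature against its higher Control TPM, on axes that are logarithmic and turn linear below 0.1 TPM. The 88 members are in purple over all 21674 tested features in grey, the dashed line marks 3 times and the solid line equal values. By the rule members lie above the dashed line, and 32 of the 88 are at 1 TPM or more on the horizontal axis.

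For most members the margin over Control was modest. Over the 82 members above 0 in Control, the lower KD value was a median of 4.17 times the higher Control value. It was 3 to under 4 times in 36 members, 4 to under 5 times in 19, 5 to under 10 times in 21, and 10 times or more in 6. The rule cuts a continuous range, as 159 further features lay at 2 to under 3 times and 40 of these at 2.5 or more. The 3 members just inside the line had ratios of 3.03, 3.07 and 3.10. The first of these was the third highest member, with 197 and 193 TPM in KD and 63.8 and 46.9 TPM in Control. The second had 5.24 and 6.57 TPM in KD and 1.16 and 1.71 TPM in Control, and the third had 2.84 and 3.34 TPM in KD and 0.706 and 0.917 TPM in Control. The 3 features just outside had 5.83 and 2.80 TPM in KD against 0.379 and 0.935 TPM in Control, 85.4 and 110 TPM in KD against 28.6 and 18.4 TPM in Control, and 3.35 and 4.18 TPM in KD against 0.388 and 1.13 TPM in Control. At the line, members and non-members thus had like levels.

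On the log2(TPM + 1) scale, which understates the change of weak features, the members had a median log2 fold change of 1.59, between 0.93 and 3.70. The mirrored fallers had a median of -1.86. By band of the higher Control value, the median was 1.64 for the 6 silent members, 1.33 for the 49 at 0.1 to under 1 TPM, 2.14 for the 27 at 1 to under 10 TPM and 2.40 for the 5 at 10 TPM or more. The ratio of lower KD to higher Control value, with no TPM added, did not rise in this way. Its median was 4.15, 4.18 and 3.63 in the bands from 0.1 TPM up.

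Few reads lay behind many of these ratios. The median member had 145 reads in the KD libraries together and 12 in the Control libraries together. Control reads together were under 5 for 22 members, under 10 for 39 and under 20 for 51, and 11 members had under 10 reads in a KD library. The share of all reads that fell on a member, pooled over the 2 libraries of each group, was a median of 7.39 times higher in KD than in Control over the 82 with Control reads. The rule chose the members for a high ratio on these same reads, so these ratios and their intervals only describe how many reads stand behind a value. The exact 95% intervals cover counting error and not the spread between animals. For the highest member the ratio was 8.68 (8.22 to 9.19), and for the member of largest log2 fold change 20.1 (13.3 to 32.0).

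**Figure D3:**
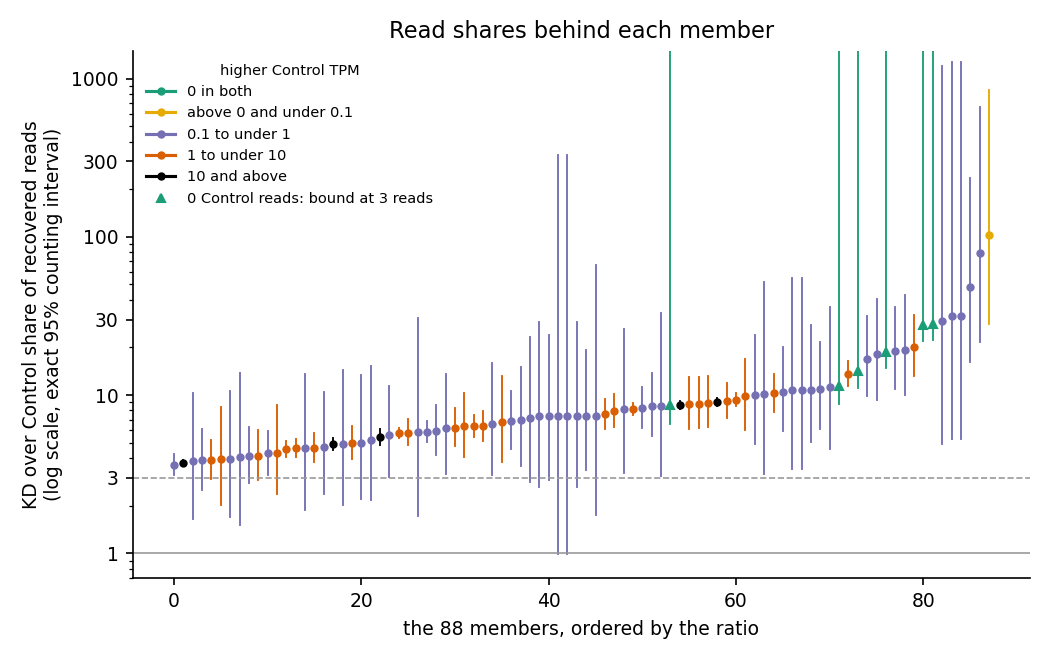
Ratio of read shares, KD over Control, on a logarithmic axis for the 88 members in order of that ratio, coloured by the band of their higher Control TPM, with vertical lines for the exact 95% counting interval. Triangles are the 6 members without Control reads, drawn against a floor of 3 reads with no upper limit, and the horizontal lines mark 1 and 3. Intervals are narrow for the 5 members at 10 TPM or more in Control and wide for most of those under 1 TPM.

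The libraries of a group did not contribute alike. KD 1 was above KD 2 in 55 of the 88 members (62.5%), against 47.7% of all tested features, and Control 2 was above Control 1 in 51 (58.0%), against 48.0%. Among the mirrored fallers Control 1 was above Control 2 in 147 of 193. The KD libraries differed by at least 2 times in 15 members (17.0%), with KD 1 higher in 10 and KD 2 higher in 5. The widest had 0.337 and 3.95 TPM in KD and 0 in both Control libraries, on 4 and 42 KD reads. The Control libraries differed by at least 2 times in 24 of the 73 members above 0 in both (32.9%). Leaving out 1 library loosens the rule and adds features, while each of the 88 stayed. The count became 153 without KD 1, 180 without KD 2, 236 without Control 1 and 868 without Control 2, so that Control 2 bounds the list most. The part of depth and of single animals in these counts was not tested.

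A limma fit over all 21674 features called 62 of them at an adjusted p under 0.05 (0.286%), 20 higher in KD (0.0923%) and 42 lower in KD (0.194%). It called 18 of the 88 members, all higher in KD, and 2 further features as higher. Since the rule used the same contrast, nothing is read from this share. Of the 18, 4 were among the 5 members at 10 TPM or more in Control, 10 among the 27 at 1 to under 10 TPM, 2 among the 49 at 0.1 to under 1 TPM, and 1 each came from the 2 lowest bands. The highest member was not among them, with its Control values of 11.6 and 65.2 TPM. Limma voom on the recovered reads called 181 of 37545 features (0.482%), 64 of them higher in KD (0.170%). It called 37 of the 86 members it tested, 15 of them also called by the first fit. Without overlap between the groups alone, 3901 features (18.0%) were higher in KD and 5023 (23.2%) lower in KD. With 2 libraries a group, such separation is frequent also among features that do not differ, so these shares do not count changed features. With a library left out, a group holds a single sample and is assumed to vary like the other. Calls of such fits are therefore not compared.

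By recovered length and reads, the members were also shorter and more thinly read than other tested features. The rule bears on reads through the mean TPM and through the ratio, so these values are a description. The mean TPM over the 4 libraries had a median of 1.91 in the members, 2.36 in the mirrored fallers and 5.43 in all tested features. Lengths recovered from TPM had a median of 587 bases in the members, between 103 and 10984, against 803 in the mirrored fallers and 926 in all tested features. They are the lowest lengths that fit the TPM, so some may be too short. The part of this in the difference was not tested. Reads over the 4 libraries had a median of 159.5 in the members, 178 in the mirrored fallers and 401 in all tested features. Fewer than 100 reads lay behind 45.5% of the members, 33.7% of the mirrored fallers and 20.8% of all tested features. The suffix _covsplit was carried by 55 members (62.5%), by 52.8% of the mirrored fallers and by 49.7% of all tested features. The part of low counts in the membership was not tested.

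The members were spread over 57 of the 2291 scaffolds with a tested feature. Of these scaffolds, 38 held 1 member, 12 held 2 and 7 held at least 3. The 7 were WNGS01164858 with 6 of 973 tested features, WNGS01009202 with 4 of 386, WNGS01169498 with 4 of 875, WNGS01163226 with 3 of 3, WNGS01159612 with 3 of 161, WNGS01165503 with 3 of 462 and WNGS01001312 with 3 of 1322. Apart from WNGS01163226, these are scaffolds with many tested features, and they held mirrored fallers as well, 7, 4, 7, 2, 2 and 14 in the same order without WNGS01163226. Of the 57 scaffolds, 26 held at least 1 mirrored faller. On WNGS01164858 the 6 members ranged between the third highest of all, described above, and a feature of 105 bases with 2.34 and 1.56 TPM in KD and 0 and 0.488 TPM in Control. That feature had 8 reads in KD and 1 in Control, so these 6 did not form a group of like level.

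By the number of tested features on a scaffold, members made up 0.872% of features alone on their scaffold (17 of 1950), 1.23% on scaffolds with 2 to 9 (8 of 652), 0.501% with 10 to 99 (3 of 599) and 0.325% with 100 or more (60 of 18473). The mirrored fallers made up 1.08%, 2.15%, 0.835% and 0.828% of the same features. Both lists were thus a larger share of the features on scaffolds with under 10 tested features. Features higher in KD without overlap were 22.4%, 27.8%, 16.0% and 17.3% of the same 4 classes, against 18.0% of all tested features. Those lower in KD without overlap were 22.5%, 18.7%, 24.5% and 23.4%, against 23.2% of all tested features. The median number of reads a feature was 235, 379.5, 346 and 435 in these classes, and its part in the shares was not tested.

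**Figure D4:**
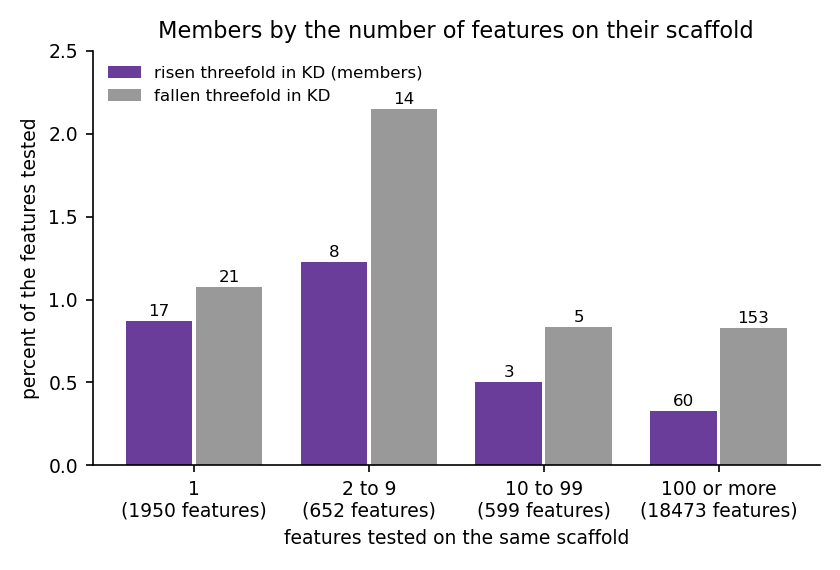
Percent of tested features that are members and percent that are mirrored fallers, by how many tested features their scaffold holds, as bars starting at 0. Members make up 0.872%, 1.23%, 0.501% and 0.325% of the 4 classes.

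Most members had no other member close by in numbering. A second member lay within 10 feature numbers for 14 of the 88 (15.9%), within 100 for 15 (17.0%) and within 1000 for 19 (21.6%), and anywhere on the scaffold for 50 (56.8%). The mirrored fallers, which are more numerous and so have more chances to lie near each other, had 24.4%, 38.3%, 50.3% and 79.8%. Whether the numbers run along a scaffold in physical order is not known here, so that these are distances in numbering. Seen from the other side, 157 tested features lay within 10 numbers of another member and 14 of these (8.92%) were members, against 0.406% of all tested features. Within 100 numbers it was 15 of 793 (1.89%). The 14 include 2 pieces of a single number and the only 2 tested features of WNGS01047158. The 0.406% is over scaffolds of all sizes, and no such share was computed for the mirrored fallers. Of the 157, 143 were not members, and without overlap 43 of them (30.1%) stood higher in KD and 25 (17.5%) lower. Their median log2 fold change was 0.08, and 0 of them were mirrored fallers. Within 100 numbers, 161 of 778 (20.7%) were higher and 178 (22.9%) lower, close to the 18.0% and 23.2% of all tested features.

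The 15 members within 100 numbers of another formed 7 runs. The run of 3 covered 22 numbers on WNGS01163226, a scaffold with no other tested feature. Its members had 48.3 and 52.0 TPM in KD against 8.16 and 3.74 TPM in Control, 40.2 and 48.5 TPM in KD against 7.28 and 7.11 TPM in Control, and 12.9 and 13.7 TPM in KD against 3.46 and 1.26 TPM in Control. All 3 carried the suffix, and KD 2 was the higher KD library and Control 1 the higher Control library in each. On WNGS01047158, which also had no tested feature besides its pair of members, these lay 9 numbers apart. One had 11.1 and 8.92 TPM in KD and 0.871 and 1.39 TPM in Control, and the other had 12.9 and 5.72 TPM in KD and 0.767 and 0.440 TPM in Control.

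On WNGS01169498, WNGS01169498.2673468_0_covsplit lay 3 numbers from a member of 4184 bases with 36.1 and 31.1 TPM in KD and 4.31 and 3.29 TPM in Control. No other tested feature lay within 10 numbers. On WNGS01001312, 2 members with consecutive numbers had 8.30 and 6.96 TPM in KD against 0 and 0.292 TPM in Control, and 31.0 and 25.0 TPM in KD against 0.923 and 4.32 TPM in Control. Of the 11 other tested features within 10 numbers, 3 stood higher in KD and 2 lower, without overlap. A pair just after these members missed the rule, since KD 2 was near Control 2. These features, chosen after their values were seen, had 32.5 and 2.99 TPM in KD against 0.164 and 2.46 TPM in Control, and 15.2 and 1.44 TPM in KD against 0.0579 and 0.906 TPM in Control. In both, KD 1 and Control 1 stood far apart while KD 2 and Control 2 were close.

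The run on WNGS01159612 had a pair of members 6 numbers apart, with 2.78 and 3.60 TPM in KD against 0.123 and 0.843 TPM in Control, and 3.30 and 3.21 TPM in KD against 0.116 and 0.971 TPM in Control. Between them lay 1 tested feature that missed the rule at a ratio of 1.69, with 296 and 378 TPM in KD and 38.8 and 175 TPM in Control. In all 3 Control 2 was well above Control 1. On WNGS01009202 a pair 3 numbers apart had 2.53 and 2.11 TPM in KD against 0.0411 and 0.376 TPM in Control, and 3.62 and 1.11 TPM in KD against 0 in both Control libraries. Of 3 other tested features within 10 numbers, 2 were lower in KD without overlap.

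The seventh run was 2 pieces of a single number on WNGS01165503. They had 8.88 and 9.41 TPM in KD against 1.95 and 1.14 TPM in Control, and 2.60 and 1.93 TPM in KD against 0.473 and 0.241 TPM in Control. The other 2 tested pieces of the same number had log2 fold changes of 0.00 and 0.42 and overlapped between the groups. The members came from 87 numbers in all, and for 18 of them the number listed more than 1 feature. Among their 13 other tested pieces, 3 were higher and 4 lower in KD without overlap, with a median log2 fold change of 0.00 between -0.58 and 1.58. The member at 1 read in each Control library had 2 such pieces, at -0.58 and -0.34, against its own 2.76.

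**Figure D5:**
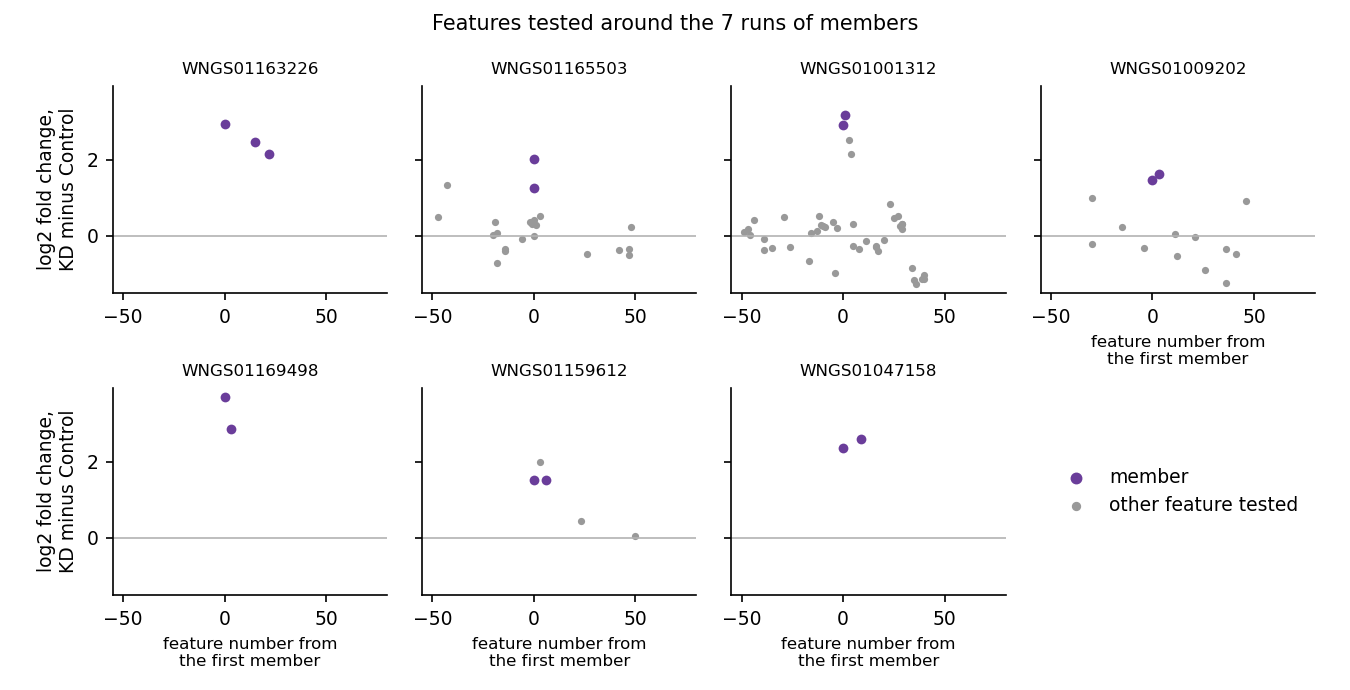
Log2 fold change, KD minus Control on the log2(TPM + 1) scale, of the members in the 7 runs (purple) and of the other tested features nearby (grey), by distance in feature numbers from the first member, with 1 panel for each run. Among grey points within 10 numbers of a run, the highest were 2.53 on WNGS01001312 and 2.00 on WNGS01159612, and 3 runs had no grey point within 10 numbers.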

How the data were processed

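Bulk hemocyte RNA (TruSeq stranded, single reads of 50 bp) of 2 *Dnmt1* KD and 2 Control libraries was used, grouped by GEO's labels. The authors mapped reads with HISAT2 2.2.1, counted them with featureCounts and deposited TPM without a filter on low counts. Genome build and gene models: not given in the sources used here. No sequence was used. The members, bands and alternatives were chosen with earlier results of these data known.

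Reads and lengths were recovered as the lowest whole numbers from which the deposited TPM follow (relative tolerance 1e-11). Depth and lengths are therefore lower bounds. The rule and its mirror were applied in Python 3.11.15 (pandas 2.3.3). Limma 3.58.1 in R 4.3.3 was fitted with a trend on log2(TPM + 1), two-sided, without covariates, with Benjamini-Hochberg adjustment over 21674 features and a threshold of 0.05. Tested on reads simulated with the same dispersion for all features, it made more false calls than the threshold allows. Its calls may hold more false ones than stated, by an amount that this simulation does not give. Alternatives were other ratios, filters, pseudocounts and scalings, limma without the trend or robust, voom on recovered reads, a replicate block and each library left out. The 2 IDs printed are the member of highest mean KD TPM and that of largest log2 fold change. Other members are given by rank, by band or by scaffold. With 1 animal per library, p-values rest on the spread between these animals. The fit draws the variance of each feature towards that of features of like level.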

Additional observations from a re-analysis of the deposited data

How the results depend on the processing

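The number of members followed the rule's settings, and each of the 88 was retained wherever the rule was loosened. It was 247 at 2 times, 52 at 4 times, 2002 without the filter on low values, 24 at a mean of at least 5 TPM, 325 with mean KD against mean Control, 29 with 1 TPM added to every value, and 153 to 868 with a library left out. It was 77 to 120 under other scalings, with the 100 highest features kept, with at least 10 reads in each KD library or within same-numbered pairs. The median log2 fold change of 1.59 became 1.93 with TPM recomputed without the 10 highest features, which raises every TPM and moved the median of all features only to 0.03, 2.80 with a pseudocount of 0.1, and 2.43 at a mean of at least 5 TPM. Leaving out a library gave 1.58 to 1.64.

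Limma called 62 of 21674 features, among them 18 of the 88 members. At a pseudocount of 0.1 it called 26 of 21674 features and 7 of 88 members. At a mean of at least 5 TPM fewer were tested, with 31 of 11257 features and 10 of 24 members called. Without the 10 highest features it called 30 of 21664 features and 11 of 88 members. Voom called 181 of 37545 features and 37 of 86 members. Without the filter limma called 0 of 58226 features and 0 members, with 4116 features and 87 members at an unadjusted p under 0.05. Leaving out a library gave 155 to 2420 calls and 35 to 84 members, all above the counts with the 4 libraries, where the remaining sample of a group is assumed to vary like the other group. With the replicate number as a block, limma called 509 features and 70 members, and the rule applied within same-numbered pairs gave 120 features. Deviations of same-numbered libraries correlated at -0.34 over features, and nothing in the labels says that a number is shared. Crossed numbers, added after seeing the data, gave 188 features and 31 members called and 142 features by the rule in pairs. The cause of these shifts was not tested. With 2 libraries a group and a median of 12 Control reads a member, the ratios are coarse.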
